A study of Homo sapiens with 9 samples.

Results

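Lymphoid cells assemble their antigen receptor genes by V(D)J recombination, and 9 genes of that reaction were followed through 3 groups of KOPTK1 cells, an established human line of T-cell acute lymphoblastic leukaemia (T-ALL). The genes were chosen by name from the deposited table of read counts: the 3 lymphoid-specific enzymes DNTT, RAG1 and RAG2, and 6 general end-joining factors, DCLRE1C, PRKDC, XRCC4, XRCC5, XRCC6 and LIG4. All 9 were found among the 17637 genes of the table, and all 9 were among the 15309 genes with enough reads to be tested. The shcControl cells carried a control hairpin RNA, the shDHX15 cells a hairpin against DHX15 (an RNA helicase with roles in splicing), and the shDHX15+MYC cells that hairpin together with an introduced MYC coding region, delivered by lentivirus; the genotype label is WT throughout. The study asked whether MYC acts downstream of DHX15 in these cells. Each group had 3 libraries of 1 cell line and 1 DHX15 hairpin; the labels do not say whether the 3 came from separate cultures, so p-values measure the spread between these libraries, which may be technical. None of the groups had MYC without the DHX15 hairpin, and which vector accompanied the hairpin in the first 2 groups is not given in the sources used here.

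Together, RAG1 and RAG2 proteins form the recombinase that cuts DNA beside the V, D and J segments, and both are needed. The cut leaves hairpin-sealed coding ends, which the nuclease Artemis (gene DCLRE1C) opens when it is bound to the DNA-dependent protein kinase catalytic subunit (PRKDC), itself held at the break by the Ku heterodimer (XRCC5 and XRCC6). Terminal deoxynucleotidyl transferase (DNTT) adds nucleotides without a template at the open ends, and DNA ligase IV (LIG4) with its partner XRCC4 seals them. In the thymus the lymphoid enzymes mark immature T cells and are turned off as the cells mature, whereas the end-joining factors serve repair of double-strand breaks in every cell type.

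The upstream sequences of DNTT and RAG2 are shown because the lymphoid genes are switched at transcription during lymphocyte development and gave different results here. They are reference sequence from RefSeq (GRCh38.p14), 200 bases, starting 250 and ending 51 bases before the annotated start, written 5′ to 3′ on the gene's strand. The window of DNTT is chr10:96304184-96304383 on the plus strand, inside an intron of AL136181.1 on the other strand, and that of RAG2 is chr11:36598287-36598486 on the minus strand, inside an intron of C11orf74. The matching window of RAG1, chr11:36510103-36510302 on the plus strand, belongs to a RefSeq start at 36510353, upstream of the GENCODE start used below; 170 of its bases lie in the first exon of TRAF6 on the other strand, and it was searched but is not shown. Capitals mark matches to CANNTG, the general E-box that basic helix-loop-helix proteins such as MYC and the E proteins TCF3 and TCF12 can bind.
DNTT: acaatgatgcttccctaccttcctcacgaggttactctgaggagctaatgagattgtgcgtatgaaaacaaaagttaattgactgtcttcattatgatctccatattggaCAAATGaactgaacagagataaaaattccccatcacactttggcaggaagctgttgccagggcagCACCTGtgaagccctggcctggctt
RAG2: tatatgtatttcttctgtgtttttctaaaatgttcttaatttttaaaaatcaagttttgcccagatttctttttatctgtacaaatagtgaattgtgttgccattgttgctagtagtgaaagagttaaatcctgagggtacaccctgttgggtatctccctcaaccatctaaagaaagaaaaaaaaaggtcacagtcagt
The DNTT window held CANNTG at -140 and -75, the second of them reading CACCTG, which is CAGGTG on the other strand. The RAG1 window held a single match at -115, and the RAG2 window held none. Gene counts do not show which annotated start is in use, so a window, that of RAG1 included, may not be the active promoter. CACGTG, the E-box form that MYC and MAX bind best, was in none of the 3 windows. Of 35116 such windows of annotated starts, 54.62% held CANNTG, 14.88% CAGGTG and 4.514% CACGTG; both strands were searched, and every CAGGTG or CACGTG is also a CANNTG. A match of letters is a description of the window and not a bound site, and a missing match says only that the letters are not in these bases. Windows were found for 7 of the 9 genes.

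The libraries held 42134302 to 59688062 counts, and 3 counts, the floor used here, correspond to 0.0519 to 0.0708 CPM (counts per 1000000 counts of the library). DHX15 fell by 0.75 on the log2 scale in shDHX15 cells (SE 0.04, adjusted p = 1.04e-09) and MYC fell by 0.33 (SE 0.03, adjusted p = 2.44e-07), while with the MYC construct MYC rose by 6.35 over shDHX15 cells, far beyond its control level, counts that include any reads of the introduced coding region. DHX15 itself was 0.23 higher in shDHX15+MYC than in shDHX15 cells (adjusted p = 0.000124) on the log2 scale and changed by -0.52 against shcControl cells (-0.26 by total counts), so the MYC comparison was not at equal DHX15 levels. Of the T cell markers, 15 of 15 in the table were above 1 CPM in every group, with a summed level of 5359 to 5442 CPM in shcControl, 4515 to 4759 in shDHX15 and 3035 to 3090 in shDHX15+MYC libraries. Markers of other lineages also differed: summed over their lists, B cell markers ran from 56.7 to 59.8, 53.2 to 57.2 and 106 to 111 CPM in these groups (EBF1 was at 0 in shcControl and CD22 in shDHX15), myeloid markers from 1.09 to 1.89, 1.64 to 2.29 and 11.5 to 12.5 (CSF1R and CD33 at 0 in shDHX15), natural killer markers from 32.6 to 37.5, 36.9 to 40.4 and 108 to 113, erythroid markers from 8.02 to 9.40, 8.22 to 9.65 and 3.64 to 4.37 (HBB at 0 in shDHX15+MYC), and markers of adherent or packaging cells from 1265 to 1273, 562 to 640 and 652 to 674 (COL1A2 at 0 in shcControl). Above 1 CPM on average in shcControl, shDHX15 and shDHX15+MYC were 3, 3 and 2 of 9 B cell markers in the table. Of myeloid markers it was 0, 0 and 4 of 9, and of natural killer markers 2, 2 and 2 of 6. Of erythroid markers it was 1 of 6 in each group, and of the adherent or packaging list 6, 6 and 8 of 11. That last list includes VIM, and which genes carry each sum is not shown, so the sums are not read as cell types. The part of these markers in the results was not tested. The first shDHX15 library stood apart. Per degree of freedom, chi-square between it and the other shDHX15 libraries was 18.03 and 17.08. It was 4.45 between those 2 libraries and 2.73 to 3.23 within the other groups. The changes of the 9 genes that moved without the first library are therefore also given without it. So are the counts of calls that changed among these genes and the gene lists below. In each library CPM was computed with trimmed-mean (TMM) scaling, and fold changes and p-values adjusted over all 15309 genes come from edgeR's quasi-likelihood test.

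DNTT, the template-independent polymerase, was the gene of the 9 that moved most, falling with DHX15 knockdown and falling much further when MYC was added. It lies on chromosome 10 (GENCODE 29, hg38, chr10:96304396-96338564, plus strand), and none of 76 windows of 100 bases along its exons is found elsewhere in the annotated exons. In shcControl libraries it stood at 101, 96.8 and 96.5 CPM (4530, 4102 and 4523 counts). In shDHX15 libraries it stood at 50.3, 51.05 and 48.7 CPM, and in shDHX15+MYC libraries at 1.94, 2.13 and 1.41 CPM (92, 103 and 66 counts). The 3 groups did not overlap at any point, and the lowest library with MYC was still well above the floor of 3 counts. The mean went from 98.0 ± 2.37 (SD, n = 3) to 50.01 ± 1.21 and to 1.83 ± 0.372 CPM. Knockdown lowered DNTT 1.96-fold (log2 change -0.97, SE 0.05, adjusted p = 5.08e-10), the 63rd lowest change of the 11997 genes whose log2 CPM averaged 1 or more. The shDHX15+MYC cells had 27.3-fold less than shDHX15 cells (log2 change -4.77, SE 0.08, adjusted p = 2.43e-18, 22nd lowest) and 53.4-fold less than shcControl cells (-5.74, SE 0.08, adjusted p = 2.06e-19, 14th lowest). Without the first shDHX15 library the knockdown change was -0.97 (adjusted p = 1.31e-19). Bulk RNA cannot tell fewer DNTT-expressing cells from less DNTT RNA in each cell.

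RAG1, the subunit that holds the recombinase's catalytic site, passed no test in the knockdown and fell with MYC. In shcControl libraries RAG1 was at 3.91, 4.30 and 3.35 CPM, in shDHX15 libraries at 4.202, 3.82 and 4.28, and in shDHX15+MYC libraries at 0.633, 1.097 and 1.05 CPM (30, 53 and 49 counts). The first 2 groups overlapped, and all 3 libraries with MYC lay below every other library. The group means were 3.85 ± 0.476, 4.10 ± 0.245 and 0.927 ± 0.255 CPM (SD, n = 3). The knockdown change was 0.09 on the log2 scale (SE 0.16, adjusted p = 0.680), which did not pass the test and does not show that RAG1 was equal in both groups. With MYC, RAG1 was 4.41-fold lower than in shDHX15 cells (log2 change -2.14, SE 0.19, adjusted p = 9.79e-09) and 4.14-fold lower than in shcControl cells (-2.05, SE 0.19, adjusted p = 2.17e-08). Without the first shDHX15 library the first of these was -2.13 (adjusted p = 3.67e-12).

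RAG2, the obligate partner of RAG1, had the fewest reads of the 9 genes, with 20 to 43 counts a library. It stood at 0.689, 0.755 and 0.789 CPM in shcControl, 0.458, 0.744 and 0.700 in shDHX15, and 0.907, 0.621 and 0.428 in shDHX15+MYC libraries. All 3 groups overlapped, and the libraries with MYC spanned the widest range. None of its changes passed the test: -0.23 with knockdown (SE 0.34, adjusted p = 0.619; -0.04 without the first shDHX15 library), 0.04 with MYC against shDHX15 (SE 0.34, adjusted p = 0.924) and -0.19 against shcControl (SE 0.34, adjusted p = 0.607). The change seen in RAG1 with MYC (-2.14) is several times these standard errors; a shift within them was not detectable in RAG2 at this depth.

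RAG1 (chr11:36510709-36593156, plus strand) and RAG2 (chr11:36575574-36598279, minus strand) overlap on opposite strands in GENCODE 29. They share 588 exonic bases, 7.524% of RAG1's exonic length and 16.7904% of RAG2's, and RAG2 shares another 321 bases (9.1662%) with C11orf74 on the plus strand. Whether counting used strand is not given in the sources used here, so reads in these stretches may not be told apart. C11orf74 itself went from 0.461 ± 0.217 and 0.543 ± 0.174 CPM in the first 2 groups to 2.66 ± 0.548 with MYC (log2 change against shDHX15 2.29, SE 0.31, adjusted p = 1.98e-06), opposite to RAG1. The part of this neighbour's reads in the RAG2 values was not tested.

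**Figure D1:**
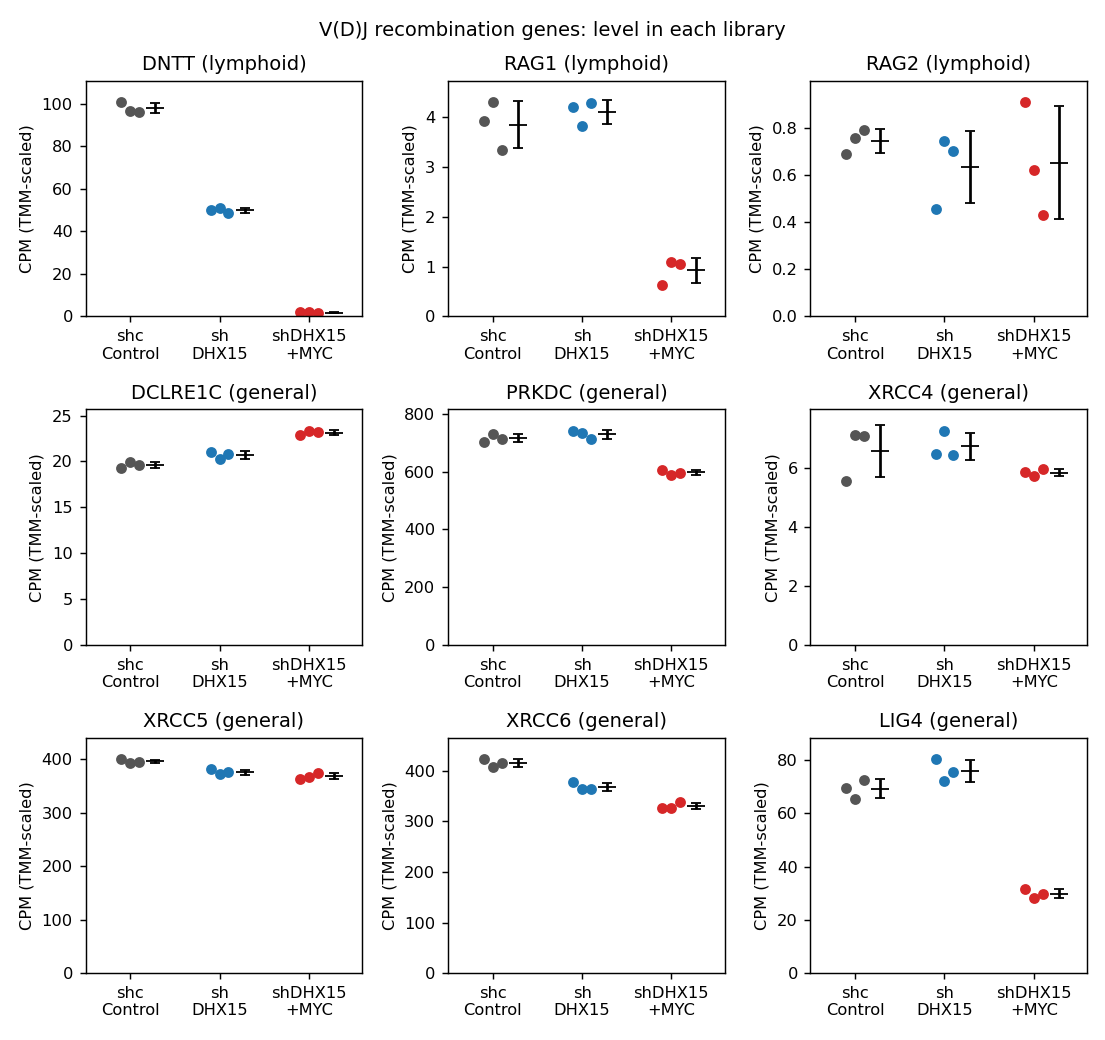
TMM-scaled CPM (y axis, from 0) of each of the 9 genes in the 3 libraries of each group (coloured points), with the mean ± SD in black. DNTT steps down from 98.0 to 50.01 to 1.83 CPM, RAG1 and LIG4 fall only in the libraries with MYC, and the RAG2 groups overlap.

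Of the general factors, LIG4, the ligase that closes the joint, was the gene that changed most with MYC. It lies on chromosome 13 (chr13:108207439-108218368, minus strand). LIG4 was at 69.4, 65.4 and 72.5 CPM in shcControl, 80.1, 71.9 and 75.4 in shDHX15, and 31.4, 28.2 and 29.8 in shDHX15+MYC libraries. The libraries with MYC were far below all the others, while the first 2 groups overlapped. LIG4 was 2.54-fold lower with MYC than in shDHX15 cells (log2 change -1.34, SE 0.05, adjusted p = 1.62e-13) and 2.32-fold lower than in shcControl cells (-1.21, SE 0.05, adjusted p = 7.68e-13). Knockdown alone gave LIG4 a change of 0.13 (SE 0.05, adjusted p = 0.0468), a call that was lost without the first shDHX15 library (0.09, adjusted p = 0.103). XRCC4 (chr5:83077498-83353787, plus strand), the scaffold that holds the ligase, was at 5.56, 7.10 and 7.06 CPM in shcControl, 6.47, 7.25 and 6.44 in shDHX15 and 5.85, 5.71 and 5.95 in shDHX15+MYC libraries. XRCC4 passed in none of the 3 comparisons (adjusted p = 0.827, 0.0924 and 0.162), with changes of 0.03, -0.21 and -0.17.

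DCLRE1C (chr10:14897359-14954432, minus strand), the hairpin-opening nuclease, was the gene of the 9 called higher with MYC. DCLRE1C was at 19.3, 19.97 and 19.6 CPM in shcControl, 21.1, 20.3 and 20.8 in shDHX15, and 22.9, 23.3 and 23.2 in shDHX15+MYC libraries, 3 groups without overlap. The change was 0.16 against shDHX15 cells (SE 0.06, adjusted p = 0.0135) and 0.24 against shcControl cells (SE 0.06, adjusted p = 0.000820), while the knockdown step of 0.08 did not pass (adjusted p = 0.273). PRKDC, the kinase, was the most heavily counted of the 9, at 703, 730 and 713 CPM in shcControl, 741, 735 and 712 in shDHX15, and 607, 590 and 594 in shDHX15+MYC libraries. The libraries with MYC lay below the rest: the changes were -0.29 against shDHX15 cells (SE 0.03, adjusted p = 3.06e-08) and -0.26 against shcControl cells (SE 0.03, adjusted p = 1.21e-07). With scaling by total counts these became -0.09 (adjusted p = 0.00674) and 0.00 (0.00381, adjusted p = 0.902).

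The Ku subunits moved little. XRCC6 (chr22:41621119-41664048, plus strand), the smaller subunit, was at 422, 407 and 415 CPM in shcControl, 376, 363 and 364 in shDHX15, and 326.1, 326.3 and 338 in shDHX15+MYC libraries, with no overlap between groups; 9 of its 270 exonic windows also occur elsewhere. XRCC6 fell by 0.17 on the log2 scale with knockdown (SE 0.03, adjusted p = 0.000144). From shDHX15 to shDHX15+MYC it fell by 0.16 (SE 0.03, adjusted p = 0.000106), but by total counts this was 0.04 in the other direction (adjusted p = 0.178). Against shcControl cells XRCC6 changed by -0.33 with MYC (SE 0.03, adjusted p = 1.20e-08), a call lost by total counts. XRCC5 (chr2:216107464-216206303, plus strand), the larger subunit, was at 399, 393 and 394 CPM in shcControl, 380.3, 371 and 375 in shDHX15 and 362, 366 and 374 in shDHX15+MYC libraries. Its knockdown change was -0.07 (SE 0.03, adjusted p = 0.0352), a call lost with total counts, with no filter on low counts and on leaving out any single shcControl library, among others, and its change from shDHX15 to shDHX15+MYC was -0.03 (adjusted p = 0.300). Against shcControl cells XRCC5 changed by -0.11 with MYC (SE 0.03, adjusted p = 0.00186), but by 0.16 with total-count scaling (adjusted p = 3.24e-05), so the direction of XRCC5 depends on the scaling.

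Counted over the 9 genes, knockdown gave 1 call of higher (LIG4) and 3 of lower (DNTT, XRCC5 and XRCC6), where 22.0% of all genes tested were called higher and 23.0% lower. With MYC against shDHX15 cells 1 was called higher (DCLRE1C) and 5 lower (DNTT, RAG1, PRKDC, XRCC6 and LIG4), beside 42.1% and 42.6% of all genes. With MYC against shcControl cells 1 was called higher and 6 lower, XRCC5 joining the list, beside 42.0% and 42.5%. Groups without overlap were found in 51.1%, 85.0% and 87.2% of all genes in these comparisons, so a lack of overlap is common here. The comparisons share libraries and are not independent. Without the first shDHX15 library the knockdown gave 0 calls of higher and 3 of lower among the 9 genes, and MYC against shDHX15 gave 1 and 5. By total counts the calls over all genes shifted from 3362 higher and 3524 lower to 4576 and 2568 for the knockdown, and from 6437 and 6502 to 8128 and 4893 for MYC against shcControl, since that scaling raises the median of all genes by 0.07 and 0.27 (0.20 for MYC against shDHX15).

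**Figure D2:**
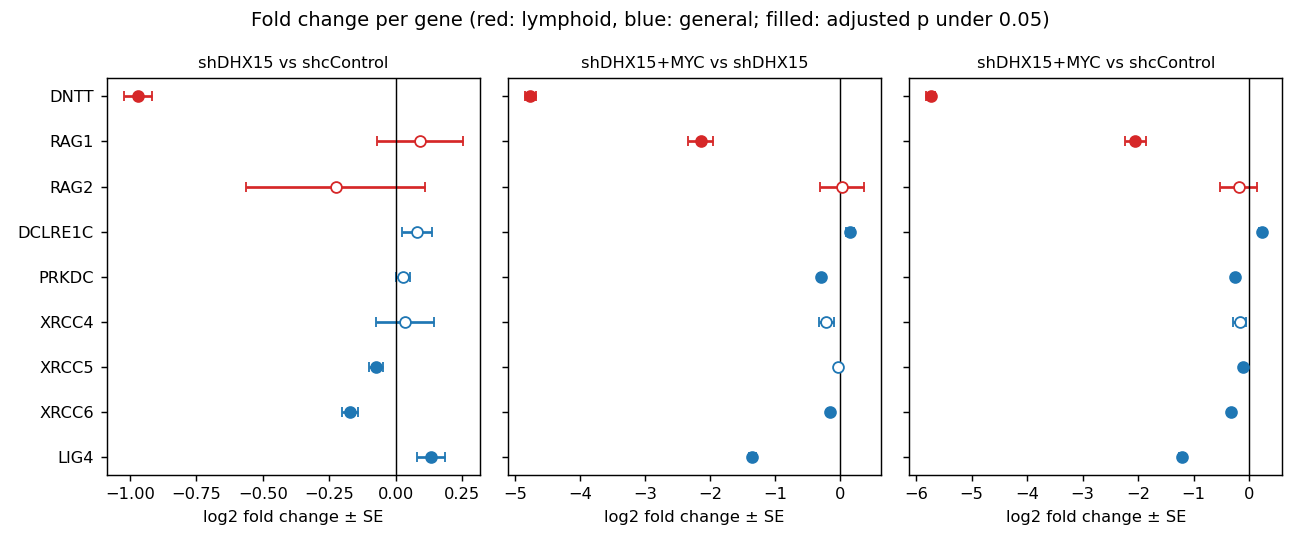
Log2 fold change ± SE (x axis; the scale differs between panels) of each gene in the 3 comparisons, red for the lymphoid and blue for the general genes, filled where the adjusted p was under 0.05. DNTT lies at -0.97, -4.77 and -5.74, and the general genes other than LIG4 stay close to 0.

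**Figure D3:**
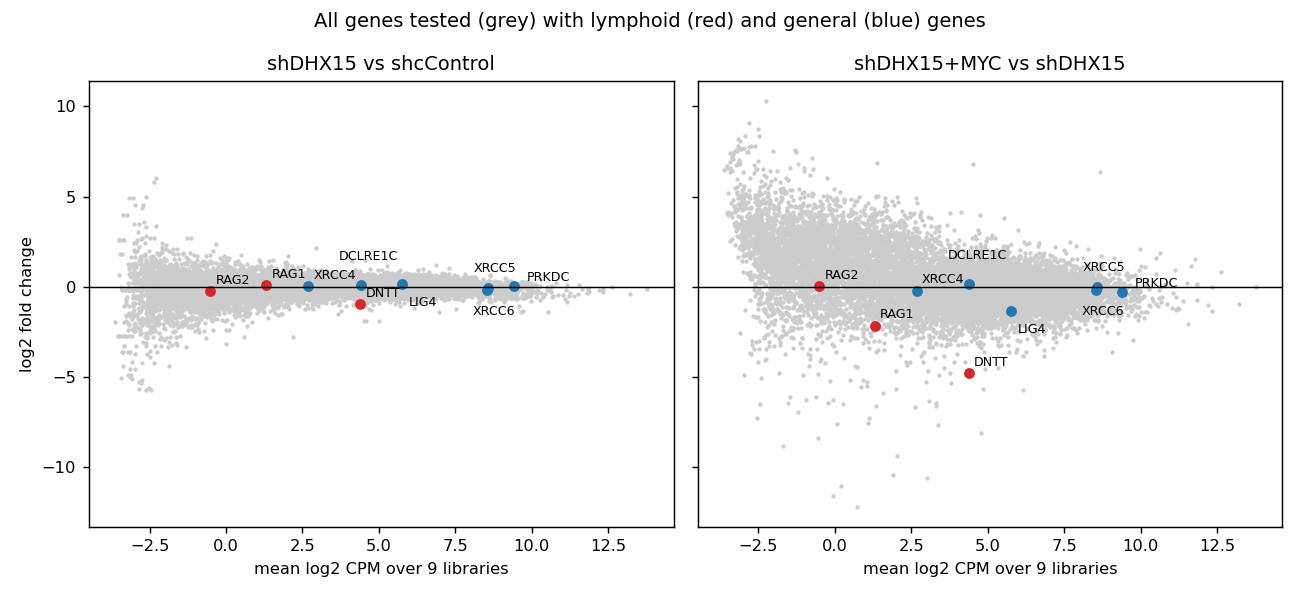
Log2 fold change (y axis) against mean log2 CPM over 9 libraries (x axis) for the 15309 genes tested in grey, with the 9 genes in colour. With MYC, DNTT lies near the lower edge of the genes of its level at -4.77, whereas RAG2 lies at 0.04.

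The 2 classes were then set against each other inside each library, which takes the scaling out of the comparison. The mean log2 CPM of the 3 lymphoid genes minus that of the 6 general genes was -3.91 ± 0.06 (SD, n = 3) in shcControl, -4.29 ± 0.12 in shDHX15 and -6.28 ± 0.21 in shDHX15+MYC libraries. The ranges, -3.99 to -3.87, -4.44 to -4.21 and -6.50 to -6.09, did not overlap. These distances also carry the lengths of the genes, so they are read between groups and not between genes. They carry changes of the general genes as well. With MYC against shDHX15 cells those ran from -1.34 (LIG4) to 0.16 (DCLRE1C), and the fitted change of RAG2 was 0.04. For DNTT the distance was -0.04 ± 0.07 in shcControl, -1.01 ± 0.03 in shDHX15 and -5.47 ± 0.32 in shDHX15+MYC libraries. RAG1 stood at -4.70 ± 0.20, -4.61 ± 0.09 and -6.43 ± 0.43, and RAG2 at -7.00 ± 0.06, -7.25 ± 0.37 and -6.94 ± 0.51, each difference being a log2 level relative to the general genes of the same library. Of all counts on the 9 genes, the lymphoid 3 took 5.95% ± 0.14 in shcControl, 3.36% ± 0.0587 in shDHX15 and 0.251% ± 0.0378 in shDHX15+MYC libraries. The medians of the fold changes were -0.23, -2.14 and -2.05 for the lymphoid and 0.03, -0.18 and -0.22 for the general genes, beside -0.00 (-0.00471), 0.01 and 0.02 over all genes tested; they follow RAG2 in the knockdown and RAG1 in both MYC comparisons. Without the first shDHX15 library the lymphoid median in the knockdown was -0.04. By total counts the general medians with MYC were 0.02 and 0.05, with 2 genes called higher and 1 lower against shcControl in place of 1 and 4.

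**Figure D4:**
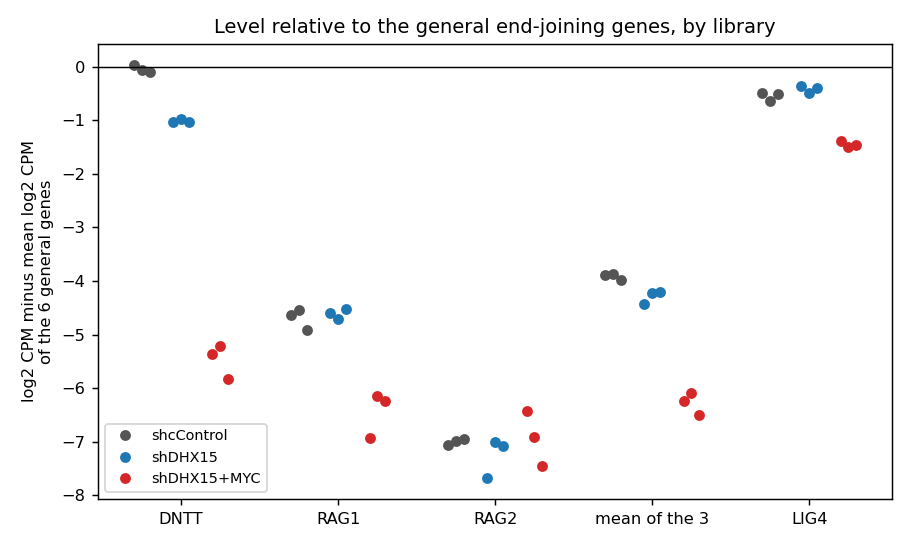
Log2 CPM of DNTT, RAG1, RAG2, their mean and LIG4 minus the mean log2 CPM of the 6 general genes (y axis), a point for each library and a colour for each group. The mean of the 3 moves from -3.91 to -4.29 to -6.28, through DNTT in the knockdown and through DNTT and RAG1 with MYC.

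Levels per kilobase of annotated exon can be set side by side between genes only roughly. The lengths are the merged exons of all annotated transcripts, which can be longer than the RNA made. XRCC6 was the most abundant in shcControl cells at 126 ± 2.36 CPM per kb (SD, n = 3), then XRCC5 at 72.4 ± 0.611. DNTT at 49.7 ± 1.20 and PRKDC at 46.4 ± 0.895 followed. Their libraries did not overlap (48.9 to 51.1 against 45.6 to 47.4). That spread leaves out the error of the lengths, so these 2 genes were not put in order. LIG4 at 15.8, DCLRE1C at 3.10 and XRCC4 at 2.46 CPM per kb came next, and RAG1 (0.493 ± 0.0610) and RAG2 (0.213 ± 0.0145) were the lowest. DNTT thus stood about as high as the kinase in the control cells while its recombinase partners were scarce. In shDHX15 cells DNTT was at 25.4 ± 0.615 CPM per kb, below PRKDC at 47.3 and above LIG4 at 17.3. With MYC it was at 0.927 ± 0.189, below XRCC4 at 2.18; RAG1 (0.119 ± 0.0327) and RAG2 (0.186 ± 0.0688) overlapped there and could not be put in order.

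The other genes of end joining were read from lists of named genes, beside which stand the shares of all genes tested: 22.0% higher and 23.0% lower with knockdown, 42.1% and 42.6% with MYC against shDHX15, and 42.0% and 42.5% with MYC against shcControl. Of 24 further end-joining and break-response factors, 11 were called higher and 3 lower with knockdown (median 0.11). RIF1, which shields broken ends from resection, rose from 87.7 ± 3.33 to 129 ± 7.68 CPM (log2 change 0.56), and RAD50 and NBN, subunits of the break-sensing MRN complex, rose by 0.37 and 0.38. Without the first shDHX15 library 13 were called higher and 5 lower. With MYC against shDHX15 cells 9 were called higher and 13 lower (median -0.18, or 0.02 by total counts, 11 and 10; 11 and 13 without the first shDHX15 library). HMGB2 and HMGB1, chromatin proteins that help the RAG recombinase bend its target DNA, were among the genes that fell: HMGB2 went from 1034 ± 28.5 to 295 ± 4.06 CPM (log2 change -1.81) and HMGB1 from 990 ± 21.3 to 441 ± 3.01 (-1.17). HMGB1 shares 42 of its 303 exonic windows with other loci. With knockdown HMGB2 and HMGB1 were called higher (0.31 and 0.13). Among the genes that rose with MYC were RIF1, RAD50 and NBN, by 0.36, 0.46 and 0.36 against shDHX15 cells. TDP1, which cleans blocked DNA ends, fell in that comparison from 82.8 ± 6.07 to 35.3 ± 0.208 CPM (-1.23). Against shcControl cells 10 were called higher and 12 lower (median -0.14, or 0.13 by total counts, 11 and 10), and MAD2L2, the shieldin subunit, fell by 1.23 on the log2 scale.

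Among 6 polymerases of the DNTT family and their partners, none was called higher and 3 lower with knockdown (median -0.19); by total counts 1 was called higher. These were POLL (log2 change -0.75, adjusted p = 0.00894), POLM (-0.29, adjusted p = 1.08e-05) and PCNA, the sliding clamp that binds DNTT (-0.36, adjusted p = 1.32e-07). POLL and POLM are the end-joining polymerases nearest to DNTT, and with MYC they went opposite ways. POLL was at 2.43 ± 0.510, 1.42 ± 0.493 and 8.68 ± 0.636 CPM in shcControl, shDHX15 and shDHX15+MYC libraries, and POLM at 255 ± 6.79, 209 ± 11.3 and 107 ± 1.84. DNTTIP2, named for its binding to DNTT, went from 27.7 ± 1.26 in shDHX15 to 133 ± 1.88 CPM with MYC (log2 change 2.26, adjusted p = 1.01e-17). In this list 3 were called higher and 2 lower against shDHX15 cells (median 0.27; by total counts 4 and 2, median 0.47), and 3 and 3 against shcControl cells (median 0.04, or 0.30 by total counts). DNTT and POLM thus fell with MYC where POLL and DNTTIP2 rose.

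The backup route of alternative end joining had 8 genes tested: 4 were called higher and none lower with knockdown (median 0.10), among them POLQ (0.33), the polymerase that anneals short homologies, XRCC1 (0.33) and the nuclease EXO1 (0.23). With MYC 4 were called higher and 3 lower against shDHX15 cells (median 0.15; by total counts 6 and 2, median 0.34) and 4 and 3 against shcControl cells (median 0.25; by total counts 7 and 1, median 0.51). EXO1 rose by 0.53 and LIG3, the ligase of this route, fell by 0.63 on the log2 scale against shDHX15 cells. XRCC1, the partner of LIG3, changed by -0.44 there. RBBP8, which starts resection, rose by 0.61 against shcControl cells. Homologous recombination, with 21 genes tested, had 10 higher and 4 lower with knockdown (median 0.09), including BRCA2 (0.51), GEN1 (0.41) and BRCA1 (0.32). With MYC it had 6 higher and 13 lower against shDHX15 cells (median -0.26, with 8 and 9 by total counts), among them RAD54L (-0.84). Against shcControl cells it had 7 higher and 11 lower (median -0.16, or 0.10 by total counts, 10 and 8). Without the first shDHX15 library that count was 7 and 12. RPA3, a subunit of the single-strand binding protein, was at -0.99 against shcControl cells. Other annotated genes overlap 79.7% of the exonic bases of RAD50, 30.5% of LIG3, 25.1% of RAD54L and 24.0% of XRCC1, so their counts are less certain.

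A list of 28 tested genes held transcription factors taken to act at the RAG or DNTT genes, and inhibitors of such factors. Their action at these genes was not tested. With knockdown 9 were called higher and 9 lower, where 22.0% and 23.0% of all genes were called (median 0.04). By total counts it was 11 and 6, and 11 and 8 without the first shDHX15 library. ID2, an inhibitor of E proteins, rose from 4.12 ± 0.130 to 5.84 ± 0.414 CPM, and its relative ID3 went from 45.8 ± 0.867 to 31.2 ± 1.64 CPM. IKZF2, an Ikaros-family factor, rose from 353 ± 7.93 to 492 ± 25.9 CPM. With MYC 7 were called higher and 18 lower against shDHX15 cells, beside 42.1% and 42.6% of all genes (median -0.42). By total counts it was 8 and 18, and without the first shDHX15 library 7 and 19. IKZF2 went to 82.5 ± 3.07 CPM (log2 change -2.58), BCL11B, a factor of T-lineage commitment, from 267 ± 21.2 to 70.7 ± 2.62 (-1.92), and GFI1, a repressor, from 113 ± 9.97 to 31.0 ± 1.23 (-1.87). Against shcControl cells 8 were called higher, ID2 at 14.7 ± 0.524 CPM among them (log2 change 1.84), and 20 lower (median -0.65), beside 42.0% and 42.5% of all genes.

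Immature thymocyte genes other than the recombinase went down with DNTT. Of 15 tested, none was called higher and 11 lower with knockdown (median -0.34), 0 and 14 with MYC against shDHX15 cells (median -1.34) and 0 and 15 against shcControl cells (median -2.11); by total counts 1 was called higher in the second of these comparisons. Over all genes tested 23.0%, 42.6% and 42.5% were called lower in these comparisons. Without the first shDHX15 library the counts were again 0 and 11, 0 and 14, and 0 and 15. This list was drawn up with earlier results of these data known and is not independent evidence of its direction. T cell markers, a list that shares TCF7 with this one, went down too, by smaller medians. Of 15 tested, 2 were called higher and 10 lower with knockdown (median -0.24). Against shDHX15 cells MYC gave 2 and 12 (median -0.62), and against shcControl cells 1 and 13 (median -0.84). Without the first shDHX15 library these were 2 and 10, 2 and 13, and 1 and 14. The fall was thus not particular to immature thymocyte genes. CD4, CD1C and CD1E fell by 1.08, 0.90 and 0.87 on the log2 scale with knockdown. CD1E, an antigen-presenting molecule of cortical thymocytes, was at 261 ± 5.55, 143 ± 2.93 and 11.9 ± 0.368 CPM in the 3 groups, ARPP21 at 58.7 ± 2.72, 46.4 ± 2.05 and 2.62 ± 0.362, and CD1B at 129 ± 2.55, 72.7 ± 1.76 and 7.63 ± 0.635. From shcControl to shDHX15+MYC cells DNTT changed by -5.74, ARPP21 by -4.48, CD1E by -4.45 and CD1B by -4.08; differences between these genes were not tested.

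**Figure D5:**
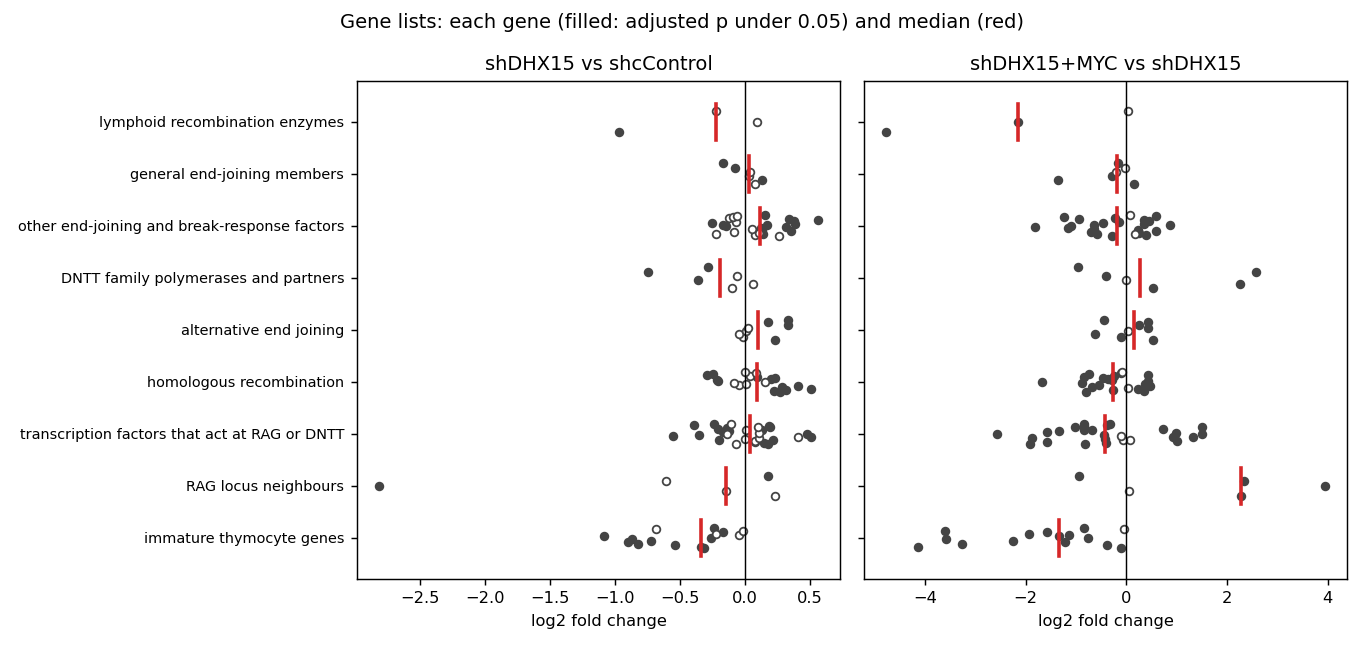
Log2 fold change (x axis; the scale differs between panels) of every gene of each list (rows), filled where the adjusted p was under 0.05, with the list's median in red, for the knockdown (left) and for MYC against shDHX15 cells (right). Immature thymocyte genes lie to the left in both, with medians of -0.34 and -1.34, and the repair lists lie on both sides of 0. The marker lists, T cell markers among them, are not drawn.

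The 5 genes around the RAG locus on chromosome 11 did not move as a block. TRAF6, a signalling ubiquitin ligase next to RAG1, went from 27.0 ± 2.16 and 30.5 ± 1.497 CPM in shcControl and shDHX15 to 15.9 ± 1.253 with MYC (log2 change against shDHX15 -0.94, adjusted p = 1.37e-09). COMMD9, further out, was at 21.4 ± 0.738, 19.4 ± 0.583 and 20.1 ± 0.807 CPM and passed in no comparison (adjusted p = 0.0660, 0.437 and 0.169). PRR5L stood at 0.383 ± 0.139, 0.246 ± 0.117 and 1.29 ± 0.202 CPM and LDLRAD3 at 0.843 ± 0.206, 0.121 ± 0.0760 and 1.87 ± 0.121, both called higher with MYC than in either other group; LDLRAD3 was close to the floor in shDHX15. With knockdown 1 of the 5 was called higher (TRAF6, 0.18, adjusted p = 0.0494, lost without the first shDHX15 library at adjusted p = 0.0983) and 1 lower (LDLRAD3). With C11orf74, 3 of the 5 neighbours were called higher and 1, TRAF6, lower in both MYC comparisons. By total counts COMMD9 was also called higher. Over all genes tested 22.0% were called higher and 23.0% lower with knockdown. With MYC it was 42.1% and 42.6% against shDHX15 cells, and 42.0% and 42.5% against shcControl cells. A list of 5 genes is too short to be set apart from these shares.

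Genes with the pattern nearest to each lymphoid gene were found by the root-mean-square difference of centred log2 CPM over the 9 libraries. For DNTT, TSHR, the thyrotropin receptor, was the nearest of 11338 candidates (0.21 log2 units), at 48.1, 27.4 and 1.22 CPM in the 3 groups, with none of its exonic windows shared. The next were NAIP (0.32), U2AF1 (0.46) and RGPD1 (0.49), of whose exonic windows 376 of 632, 343 of 380 and 498 of 524 also occur at other loci, so their counts are uncertain. For RAG1 the nearest were GIPR (0.11), KLHDC1 (0.13), TTC39B (0.18) and TC2N (0.18), with no shared windows; GIPR was at 3.88, 4.27 and 1.04 CPM. For RAG2 they were PECR (0.21), EPS8L1 (0.21), VWCE (0.22) and ANKLE1 (0.24), genes that also varied little between groups.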

How the data were processed

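Per the labels' protocols, poly(A) RNA libraries of transduced KOPTK1 cells were read from both ends for 150 bases. HISAT2 2.2.1, FastQC 0.11.9, DESeq2 1.32.0 and the build hg38 are listed in the submitters' processing notes. How reads were counted, and on which annotation, is not given in the sources used here. What the authors deposited is 1 table of raw counts per gene, whole numbers with no scaling. Columns were matched to samples through their names, those with a GFP hairpin being taken as shcControl; 26 gene names read as dates and were left as they stood.

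Genes were filtered with filterByExpr (15309 of 17637 kept), scaled by TMM and fitted over all 9 libraries with edgeR 4.0.16 (R 4.3.3), with Benjamini-Hochberg adjustment over all genes tested and a threshold of 0.05; the scripts were tested on simulated data. Log2 levels used a prior count of 2. Lengths, positions, overlaps and shared windows of 100 bases came from GENCODE 29, promoters from RefSeq. Replicate numbers did not pair the libraries.

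The genes named are the 9 members, DHX15, MYC, the 5 locus neighbours, per comparison up to 3 genes of each list with the largest called change whose log2 CPM averaged 1 or more, and the 4 nearest patterns; some genes this rule would name are not reported here. The members and lists were chosen with earlier results of these data known. Other scalings, filters, DESeq2 1.42.0, a replicate block and left-out libraries were tried.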

Additional observations from a re-analysis of the deposited data

How the results depend on the processing

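The falls of DNTT, RAG1 and LIG4 with MYC, of DNTT and XRCC6 with knockdown, and the rise of DCLRE1C with MYC kept their direction and stayed past the threshold under all alternatives run. Members called higher with knockdown numbered 3 with total-count scaling, 0 with DESeq2 and 0 to 1 with a library left out (LIG4, lost without shcControl replicate 1 or 2, shDHX15 replicate 1 or 3, or shDHX15+MYC replicate 3). With total counts 2 members were called higher in each MYC comparison and 3 lower against shcControl. XRCC5 in the knockdown lost its call with total counts (-0.01, adjusted p = 0.828), with no filter (adjusted p = 0.0503), in a fit of the 2 groups alone (adjusted p = 0.153), and with the removal of any single shcControl library, shDHX15 replicate 2 or 3, or shDHX15+MYC replicate 2. As the ratio of summed CPM, the log2 lymphoid-to-general level was -3.98, -4.85 and -8.64 in shcControl, shDHX15 and shDHX15+MYC, since sums weigh DNTT most. The signs changed with total counts for XRCC5 (0.17) and XRCC6 (0.0427) with MYC against shDHX15, and for RAG2 (0.0753), PRKDC (0.00381), XRCC4 (0.0939) and XRCC5 (0.16) against shcControl; for XRCC5 against shDHX15 the change was 0.00794 with RLE factors and 0.00680 with DESeq2. Total counts move every log2 change up by construction. With a library left out, changes that crossed 0 ran from -0.0727 to 0.0927 (XRCC4) and -0.00167 to 0.18 (RAG1) with knockdown, from -0.28 to 0.26 (RAG2) with MYC against shDHX15, and from -0.50 to 0.0341 (RAG2) against shcControl; none of these passed the test. The replicate block changed 0 of the 27 member calls (DNTT with knockdown -0.97, adjusted p = 4.01e-09); same-numbered libraries did not deviate together. Counts for the gene lists with total counts and without the first shDHX15 library were added after seeing the data. RAG2, with 20 to 43 counts a library, is limited by depth.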
